A study of Mus musculus with 10 samples.

Results

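The genes described are Cbs, the entry enzyme of transsulfuration, with its partners in transsulfuration and the methionine cycle, in the hippocampus of Dp1Rhr mice and their control littermates. They were chosen by name: Cbs, Cth, Mat2a, Mat2b, Ahcy, Ahcyl1, Mtr, Mtrr and Cdo1. In all 19938 genes could be tested and named on these arrays. A gene was read from probe sets annotated with its symbol alone, and the brightest by mean over all 10 arrays would stand for it. Of the 9 listed, 7 were measured in this way, each by 1 probe set. No annotated probe set was found for Mat2a, and the 3 probe sets of Ahcy are shared with the symbol Gm4737, so neither gene was read. The list was drawn up with the lower Cbs signal in these same arrays already known, so the values of its members are a description of these 10 mice and not an independent test.

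The control group comprised 5 wild type males with the usual copy number of every gene, and the Dp1Rhr group 5 males that carried 3 copies of the interval from Cbr1 to Fam3b on chromosome 16. Both came from the cross of the Dp5Yah and Dp1Rhr lines, were 16 weeks old and are labelled C57BL/6N, although the study's methods name C57BL/6J. RNA of both hippocampi of 1 mouse was hybridised to 1 array. The duplication is carried in the germline and so is present in every cell of the animal. None of the 7 measured members lies on chromosome 16, and Cbs lies on chromosome 17, in a segment homologous to human chromosome 21 that is not duplicated here.

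In the methionine cycle, methionine is converted to S-adenosylmethionine, the methyl donor of most methyltransferases, and returns through S-adenosylhomocysteine and homocysteine to methionine. Homocysteine leaves the cycle by transsulfuration, in which cystathionine beta-synthase (Cbs) joins it to serine and cystathionine gamma-lyase (Cth) releases cysteine, the source of glutathione, taurine and hydrogen sulphide. In the brain Cbs is found mainly in astrocytes. In humans the gene is on chromosome 21 and its overdosage in Down syndrome is a long-standing subject of study, which makes its level in a model that leaves it at the usual copy number of interest.

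The upstream sequences of the gene with the lower signal and of a pair of members with overlapping groups are shown to place them side by side, from RefSeq on GRCm38.p6, 250 bases before the annotated start site, 5′ to 3′, minus strand in all 3 cases. Where a gene had several start sites the outermost is printed, and Cth has no entry. Capitals mark any of 6 motifs searched on both strands. They were the GC box of Sp1-like factors, spelled GGGCGG, the CCAAT box of the NF-Y complex, searched as those letters, and the E-box of basic helix-loop-helix factors, spelled CACGTG. The other searches were for the amino acid response element (TGATGNAA), the antioxidant response element (TGACNNNGC) and the cAMP response element (TGACGTCA).
Cbs, chr17:31637206-31637455: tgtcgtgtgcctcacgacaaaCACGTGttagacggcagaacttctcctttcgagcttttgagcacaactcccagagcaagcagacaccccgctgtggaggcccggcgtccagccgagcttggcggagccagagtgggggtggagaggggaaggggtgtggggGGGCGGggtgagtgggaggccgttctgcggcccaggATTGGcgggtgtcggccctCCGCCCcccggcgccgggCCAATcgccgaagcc
Mtrr, chr13:68582170-68582419: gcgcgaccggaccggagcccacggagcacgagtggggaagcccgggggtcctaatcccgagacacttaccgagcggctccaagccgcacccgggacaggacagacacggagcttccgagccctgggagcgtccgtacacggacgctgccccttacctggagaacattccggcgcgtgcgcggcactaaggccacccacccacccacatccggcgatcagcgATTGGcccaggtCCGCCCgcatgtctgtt
Ahcyl1, chr3:107696561-107696810: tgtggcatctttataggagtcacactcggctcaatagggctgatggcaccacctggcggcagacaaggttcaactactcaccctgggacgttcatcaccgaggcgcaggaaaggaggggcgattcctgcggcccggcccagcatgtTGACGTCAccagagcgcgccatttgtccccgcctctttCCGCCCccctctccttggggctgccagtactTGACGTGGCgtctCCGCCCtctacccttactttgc
The last 28 bases of the Cbs window lie inside the annotated span of the gene, and the other windows lie wholly outside theirs. The Cbs window held 2 GC boxes, 2 CCAAT boxes, in each case 1 per strand, and 1 E-box, with 68.0% G and C and 21 CpG dinucleotides. Over 32851 RefSeq promoters of the same length, a GC box occurred in 32.7%, a CCAAT box in 33.8% and an E-box in 6.02%, and the median CpG count was 6, with quartiles of 2 and 16. The Mtrr window held 1 GC box and 1 CCAAT box, with 28 CpG. The Ahcyl1 window held 2 GC boxes, 1 cAMP response element and 1 antioxidant response element, motifs found in 1.55% and 10.2% of promoters, with 16 CpG. No amino acid response element, present in 3.45% of promoters, was found in the 3 windows. None of the motifs in capitals overlapped another. These are matches of letters and not bound sites.

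Medians over all probe sets ran from 6.77 to 6.83 and pairwise correlations from 0.995 to 0.999. Control replicates 2 and 3 stood apart in genes of the choroid plexus, the secretory epithelium of the ventricles next to the hippocampus: their log2 signal of Ttr was 9.53 and 9.83, against 13.21 to 13.61 on the other 8 arrays. The mean of the 16 measured choroid plexus markers was 6.88 to 8.79 in control and 8.41 to 9.17 in Dp1Rhr, with all 16 higher in the mean of Dp1Rhr and none past the test. Arrays differed in habenula markers too. The mean of these 6 was 8.22, 7.74 and 8.41 in Dp1Rhr replicates 2, 3 and 4 and 7.54 in control replicate 3. On the other arrays it was 6.92 to 7.12. None of the 6 passed the test, and no fit with a habenula covariate was run. The mean of the 21 astrocyte markers was 10.87 to 10.95 in control and 10.90 to 10.97 in Dp1Rhr, and all 21 were above the 40th percentile of signal. So were all 10 markers of hippocampal neurons. The mean of the 7 oligodendrocyte markers was 10.88 to 11.002 in control and 10.96 to 11.18 in Dp1Rhr. All 7 were higher in the mean of Dp1Rhr, 4 at an unadjusted limma p of 0.05 (15.0% of all genes), and none passed the test.

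Cbs gave a lower signal in Dp1Rhr than in control, by about 18% on the linear scale. The 5 control arrays read 9.09, 9.06, 9.10, 9.22 and 9.21 in log2 signal, and the 5 Dp1Rhr arrays 8.86, 8.84, 8.69, 8.89 and 8.998. Every Dp1Rhr array lay below every control array, with a gap of 0.06 between the nearest pair, Dp1Rhr replicate 5 and control replicate 2. The group means were 9.14 ± 0.07 and 8.86 ± 0.11 (SD, n = 5 each), a log2 difference of -0.28 ± 0.05 (SE), with a 95% interval of -0.40 to -0.16, or a fold of 0.824. In the limma fit over 19938 genes its adjusted p was 0.0434, and it ranked 112th by p. Across all genes 0.802% passed at an adjusted p of 0.05, 0.176% as lower in Dp1Rhr and 0.627% as higher, and in 1.70% every Dp1Rhr array lay below every control array (1.82% above). Since Cbs was picked for this difference, nothing is read from its place against those shares.

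**Figure D1:**
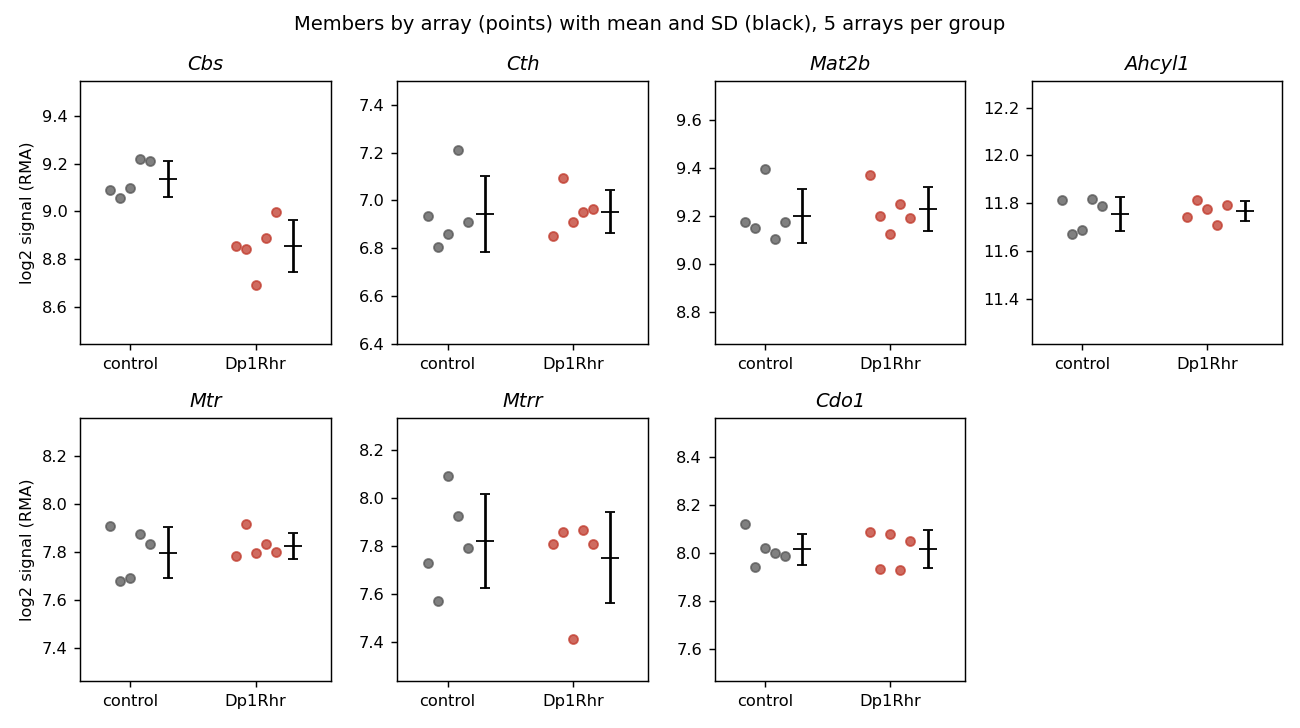
Log2 signal (RMA) of each measured member on the 5 control (grey) and 5 Dp1Rhr (red) arrays, with the group mean and SD in black; every panel spans 1.1 log2 units. The Cbs groups do not overlap (control 9.06 to 9.22, Dp1Rhr 8.69 to 8.998), while the groups of the other 6 members do.

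The size of the Cbs difference moved little with the arrays used, and its adjusted p moved across the threshold. Leaving out each array in turn gave log2 differences from -0.32 to -0.24 and limma adjusted p from 0.0187 to 0.131. The call was kept without Dp1Rhr replicate 3 or Dp1Rhr replicate 5 and lost in the other 8 fits. Without control replicates 2 and 3 together the difference was -0.32 (adjusted p = 0.109), and when the fit was given a covariate for choroid plexus signal it was -0.34 (adjusted p = 0.117). With an astrocyte score as covariate it was -0.28 (adjusted p = 0.121). In bulk tissue fewer cells of a type and less RNA per cell cannot be told apart. Of the 21 astrocyte markers 14 had a higher mean in Dp1Rhr and 7 a lower one, with a median log2 difference of 0.05. At an unadjusted p of 0.05, 5 were higher and 5 lower, against 15.0% of all genes in either direction. In 3 every Dp1Rhr array lay below every control array (1.70% of all genes) and in 0 above (1.82%). The 1 that passed the limma test was Fgfr3, lower in Dp1Rhr (named after its value was seen), a receptor tyrosine kinase whose log2 signal was 9.56 to 9.81 in control and 9.16 to 9.55 in Dp1Rhr, a difference of -0.37 (adjusted p = 0.0471). Its part in the Cbs difference was not tested.

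**Figure D2:**
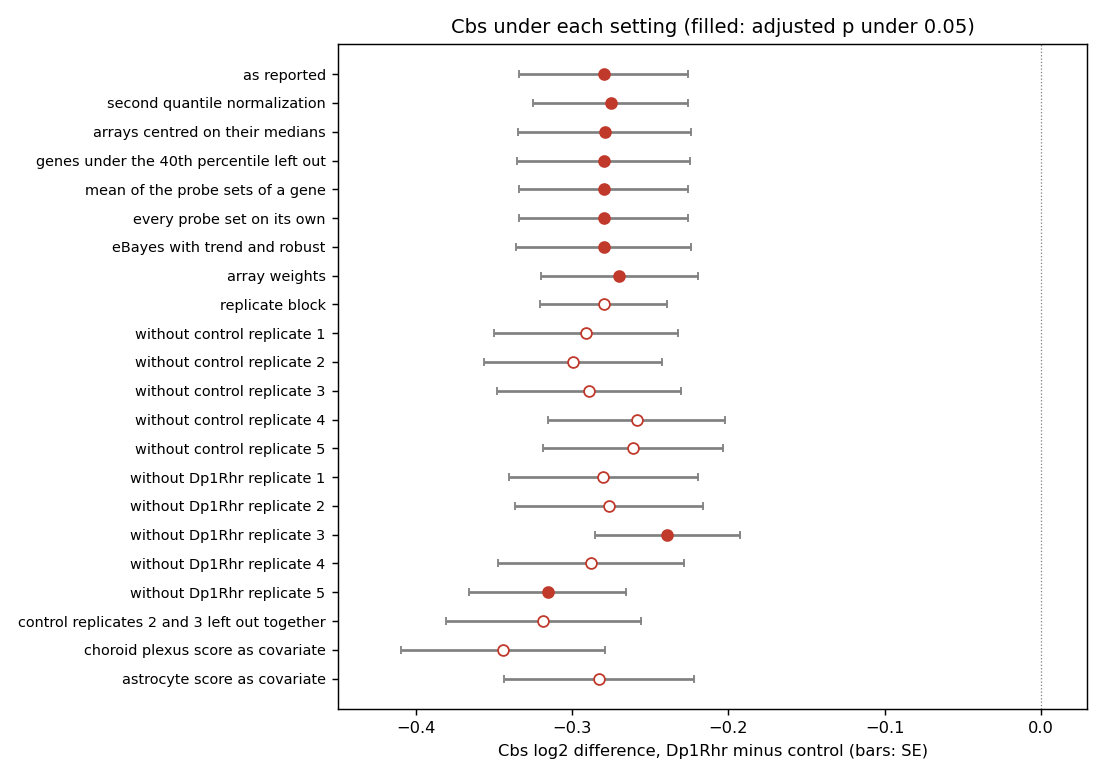
Log2 difference of Cbs between Dp1Rhr and control with its SE under each setting of the limma fit; filled points have an adjusted p under 0.05. All points lie between -0.34 and -0.24, and open points are those where the call was lost.

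Of the other 6 measured members none passed the limma test, which 0.802% of all genes passed. Their log2 differences ran from -0.07 to 0.03 and their adjusted p from 0.840 to 0.997. In all 6 the groups overlapped, and over all genes only 3.52% had groups that did not. Nothing is read from these counts.

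Cth, which completes transsulfuration, lies at chr3:157894248-157925081. Control arrays read 6.94, 6.81, 6.86, 7.21 and 6.91 and Dp1Rhr arrays 6.85, 7.10, 6.91, 6.95 and 6.96 in log2 signal. The highest array was a control and the lowest a control too, so the Dp1Rhr range lay inside the control range. The log2 difference was 0.0093 ± 0.07 (SE, n = 5 each), with a 95% interval of -0.15 to 0.16 (limma adjusted p = 0.977). The mean Cth signal was the lowest of the measured members, at percentile 41.8 of all genes, which limits what this interval can show. Cdo1, cysteine dioxygenase, which commits cysteine to sulphite and taurine, read 8.12, 7.94, 8.02, 7.998 and 7.99 in control and 8.09, 7.93, 8.08, 7.93 and 8.05 in Dp1Rhr. These ranges nearly coincide, and the interval of the log2 difference was -0.10 to 0.10 (adjusted p = 0.997).

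On the side of the cycle that makes and recovers S-adenosylmethionine, Mat2b, the regulatory subunit of methionine adenosyltransferase, lies at chr11:40679314-40695203. It read 9.17, 9.15, 9.40, 9.10 and 9.17 in control and 9.37, 9.20, 9.12, 9.25 and 9.19 in Dp1Rhr. Control replicate 3 was the highest of all arrays, and control replicate 4 was the lowest, so the Dp1Rhr range lay inside that of the controls. The log2 difference was 0.03 ± 0.06 (SE), with an interval of -0.10 to 0.16. Ahcyl1, a relative of adenosylhomocysteinase known mainly as a partner of the inositol trisphosphate receptor, lies at chr3:107663120-107696560. It read 11.81, 11.67, 11.69, 11.82 and 11.79 in control and 11.74, 11.81, 11.78, 11.71 and 11.79 in Dp1Rhr. It varied least among the members, with an SD of 0.04 in Dp1Rhr, and control replicates 2 and 3 were its lowest arrays. Its log2 difference of 0.01 ± 0.04 had an interval of -0.07 to 0.09.

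Methionine synthase, Mtr, which remethylates homocysteine with a folate methyl group and a cobalamin cofactor, lies at chr13:12181331-12258199. It read 7.91, 7.68, 7.69, 7.87 and 7.83 in control and 7.78, 7.92, 7.80, 7.83 and 7.80 in Dp1Rhr. Control replicates 2 and 3 were again the lowest arrays, and the log2 difference was 0.03 ± 0.05 (SE) with an interval of -0.08 to 0.14. Its reductase Mtrr, which restores the cofactor, lies on the same chromosome at chr13:68560780-68582169. It read 7.73, 7.57, 8.09, 7.92 and 7.79 in control and 7.81, 7.86, 7.41, 7.87 and 7.81 in Dp1Rhr. It was the most variable member, with an SD of 0.20 in control, and Dp1Rhr replicate 3 was its lowest array. The log2 difference was -0.07 ± 0.10, with an interval of -0.30 to 0.16. A difference of the size measured for Cbs lay outside the 95% intervals of 5 of these 6 members and inside that of Mtrr. Cbs was picked for its difference, so this is a description and not a test. The interval of Cbs itself, -0.40 to -0.16, overlapped that of Mtrr.

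The order of arrays within a group differed between members. Over the 10 arrays, with each group's mean taken off, the closest pair was Ahcyl1 and Mtr (Pearson r = 0.870), followed by Cth and Mtr (r = 0.717) and Cth and Ahcyl1 (r = 0.705). Cbs was nearest to Mtrr (r = 0.589), and its r with Mat2b was 0.0042. Dp1Rhr replicate 3 was the lowest array of both Cbs (8.69) and Mtrr (7.41). The r values between members were not recomputed without that array. These are descriptions over 10 arrays that share RNA quality, dissection and the 2 control arrays low in choroid plexus genes. Among all genes above the 40th percentile of signal, those whose group-centred values followed Cbs most closely were Tbk1 (r = 0.962), Polg (r = 0.952), Tbc1d23 (r = 0.941), Myef2 (r = 0.930) and Slc35b1 (r = 0.921), with Spearman rho from 0.867 to 0.952. Nrn1l (r = -0.948), Ccdc87 (r = -0.940) and P2ry12 (r = -0.930), the last a microglial purine receptor, were the most opposed. With 11963 genes above that percentile and 10 arrays, some r of this size can arise by chance, and none was tested. Centring the arrays on their medians moved the r of Nrn1l to -0.743 and that of P2ry12 to -0.789, and no sign changed.

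The wider sulphur and one-carbon pathway was read from 5 lists, 78 genes besides the members, of which 72 were measured. In Dp1Rhr 3 of the 72 were higher at an adjusted p of 0.05 in limma and 0 were lower, or 4.17% called against 0.802% of all genes. All 3 stood at an adjusted p of 0.0494. Over all genes, too, more passed as higher (0.627%) than as lower (0.176%). At an unadjusted p of 0.05, 18 were higher and 5 lower, and 15.0% of all genes passed in either direction. The groups did not overlap in 6 (8.33%, against 3.52% of all genes), 5 above and 1 below control. The median log2 difference over the 72 was 0.04, and over all genes it was -7.6e-05 with quartiles of -0.04 and 0.04.

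**Figure D3:**
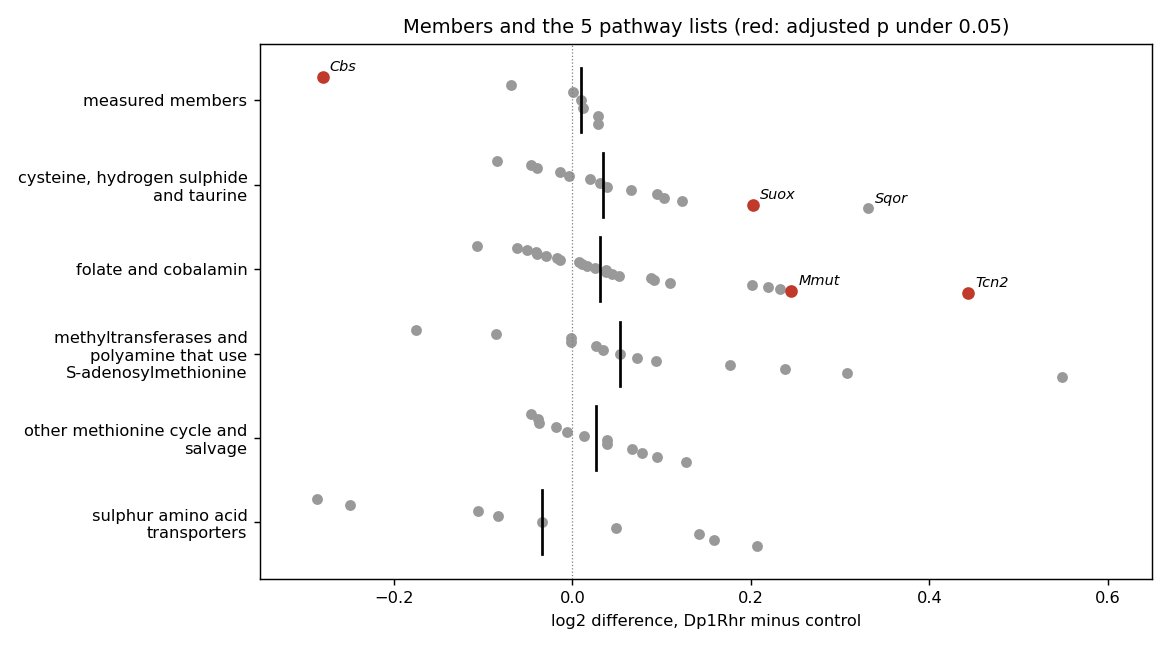
Log2 difference between Dp1Rhr and control of the 7 measured members and of the genes of the 5 pathway lists, 1 point per gene, with the list median as a black bar; red points passed the limma test at an adjusted p of 0.05. Cbs is the only red point below 0, and Suox, Tcn2 and Mmut are the red points above it.

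Of the 14 genes that handle cysteine, hydrogen sulphide and taurine, all measured, 1 passed the test as higher and 0 as lower. Over all genes 0.627% passed as higher and 0.176% as lower. The median log2 difference of the 14 was 0.03. Suox, sulphite oxidase, which takes sulphite to sulphate in mitochondria, read 8.46, 8.46, 8.48, 8.58 and 8.44 in control and 8.74, 8.73, 8.69, 8.71 and 8.56 in Dp1Rhr. Only control replicate 4 reached the Dp1Rhr range, and the log2 difference was 0.20 ± 0.04 (SE, n = 5 each; adjusted p = 0.0494). Sqor, the mitochondrial enzyme that oxidises hydrogen sulphide, read 8.10, 7.70, 7.86, 8.05 and 7.78 in control and 8.28, 8.29, 8.20, 8.18 and 8.20 in Dp1Rhr. Every Dp1Rhr array lay above every control array, although its log2 difference of 0.33 ± 0.07 missed the threshold (adjusted p = 0.0535). It was 0.25 without control replicates 2 and 3 (adjusted p = 0.166) and 0.19 with the covariate for choroid plexus signal (adjusted p = 0.277). Mpst, which releases sulphide from mercaptopyruvate, differed by 0.10 (adjusted p = 0.181). Gclm, the modifier subunit of the enzyme that starts glutathione synthesis, differed by 0.12 with groups that did not overlap (adjusted p = 0.184).

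The 24 measured genes of folate and cobalamin handling supply Mtr with its methyl group and cofactor. In limma 2 passed as higher and 0 as lower, against 0.627% and 0.176% of all genes. The list median was 0.03. Tcn2, the plasma and cellular carrier of cobalamin, read 10.46, 10.03, 10.09, 10.52 and 10.24 in control and 10.81, 10.75, 10.69, 10.56 and 10.74 in Dp1Rhr. The groups did not overlap, and control replicates 2 and 3 were the lowest arrays. Its log2 difference was 0.44 ± 0.09 (adjusted p = 0.0494), 0.31 without those control arrays (adjusted p = 0.139) and 0.22 with the choroid plexus score as a covariate (adjusted p = 0.153). Mmut, methylmalonyl-CoA mutase, the other cobalamin-dependent enzyme of mammals beside methionine synthase, read 9.24, 9.12, 9.27, 9.16 and 9.19 in control and 9.42, 9.56, 9.54, 9.32 and 9.37 in Dp1Rhr. The groups did not overlap, and the log2 difference was 0.25 ± 0.05 (adjusted p = 0.0494), 0.25 without control replicates 2 and 3 (adjusted p = 0.140). Below the threshold, Slc46a1, the proton-coupled folate transporter, differed by 0.20 (adjusted p = 0.0853), Mmachc, which processes cobalamin after uptake, by 0.23 (adjusted p = 0.101) and Aldh1l1, a folate enzyme that also stands among the astrocyte markers, by 0.11 (adjusted p = 0.273). The calls of Suox and Tcn2 were each lost in 8 of the 10 fits that left out an array, and that of Mmut in 9, with log2 differences of 0.19 to 0.23, 0.38 to 0.51 and 0.22 to 0.27. They were kept for Suox without control replicate 4 or Dp1Rhr replicate 5, for Tcn2 without control replicate 1 or control replicate 4, and for Mmut without Dp1Rhr replicate 5.

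**Figure D4:**
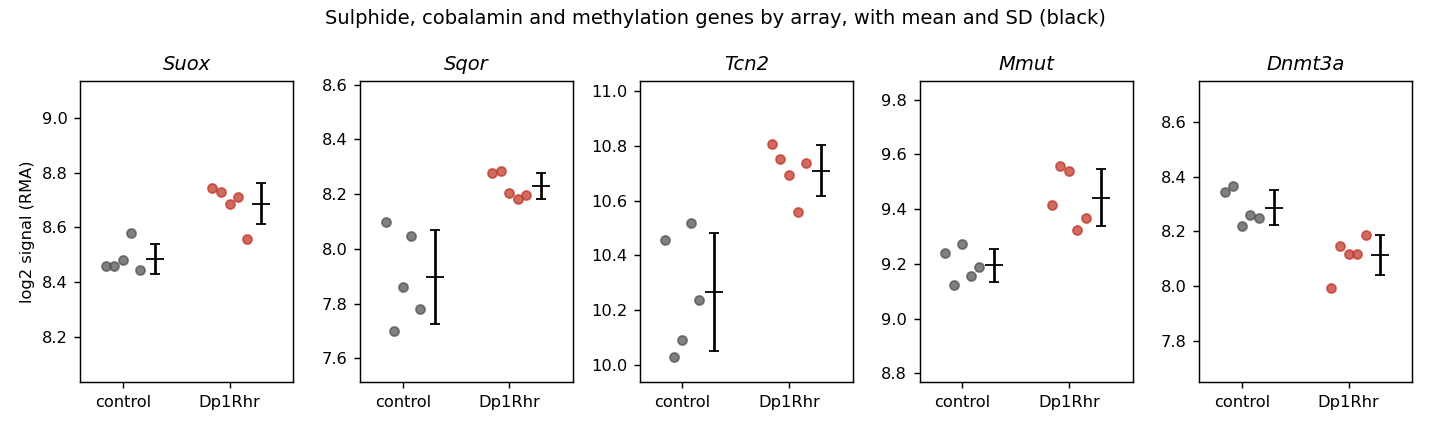
Log2 signal (RMA) of 5 pathway genes on the 5 control (grey) and 5 Dp1Rhr (red) arrays, with the group mean and SD in black; every panel spans 1.1 log2 units. In Sqor, Tcn2 and Mmut all Dp1Rhr arrays lie above control, in Dnmt3a all lie below, and in Suox control replicate 4 (8.58) overlaps the Dp1Rhr range.

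The genes that use S-adenosylmethionine, 13 measured, held no call in either direction in limma, and their median log2 difference was 0.05. At an unadjusted p of 0.05, 4 were higher and 2 lower, against 15.0% of all genes in either direction. Gamt, which makes creatine, differed by 0.24 (adjusted p = 0.0730). Dnmt3a, a de novo DNA methyltransferase, read 8.34, 8.37, 8.22, 8.26 and 8.25 in control and 7.99, 8.15, 8.12, 8.12 and 8.19 in Dp1Rhr, without overlap, a difference of -0.17 (adjusted p = 0.0811). As3mt, which methylates arsenic, differed by 0.18 with groups that did not overlap (adjusted p = 0.0900).

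The other 12 methionine cycle and salvage genes held no call in limma, and their median was 0.03. At an unadjusted p of 0.05, 1 of them was higher and 0 lower, against 15.0% of all genes in either direction. Those with the smallest p were Ahcyl2, the closest relative of Ahcyl1, at 0.13 (adjusted p = 0.246), Bhmt2, a betaine-homocysteine methyltransferase relative, at 0.07 (adjusted p = 0.443) and Mtap, of methionine salvage, at 0.10 (adjusted p = 0.494). The mean signal of Bhmt2 was low, at percentile 20.8 of all genes. The Ahcyl2 difference was 0.048 without control replicates 2 and 3 and 0.015 with the covariate for choroid plexus signal, with which that of Bhmt2 was 0.035, and the Mtap difference was 0.046 with the astrocyte score. The 9 amino acid transporters held no call either, with 3 higher and 3 lower at an unadjusted p of 0.05 (15.0% of all genes). Their median was -0.03. Among them Slc38a2, a carrier of small neutral amino acids including methionine, differed by -0.25 (adjusted p = 0.0782), Slc1a5 by 0.16 (adjusted p = 0.125) and Slc7a5, the large neutral amino acid carrier, by 0.14 (adjusted p = 0.125). The mean signal of Slc1a5 was low, at percentile 32.9 of all genes.

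Among the neighbours of Cbs on chromosome 17, where both groups have the usual copy number, no gene passed the test. Cbs occupies chr17:31612623-31637233, and 7 other measured genes begin within 250 kb of it. From -226.5 kb to 231.6 kb they were Pde9a at a log2 difference of 0.17, Wdr4 at 0.04, Ndufv3 at 0.10, Pknox1 at 0.06, U2af1 at -0.0031, Cryaa at 0.02 and Sik1 at -0.05. In limma 0 of the 7 passed, with adjusted p from 0.180 to 0.989, and 1 (Pde9a, a cyclic GMP phosphodiesterase) had an unadjusted p under 0.05. Over all genes 0.802% passed, and 15.0% had an unadjusted p under 0.05. The Cbs difference lay outside the 95% intervals of 6 of the 7 and inside that of Sik1, a salt-inducible kinase whose control arrays ran from 8.54 to 9.34. Cbs was picked for its difference, so this is a description and not a test. The interval of Cbs itself, -0.40 to -0.16, overlapped that of Sik1. The mean signal of Cryaa was low, at percentile 37.2 of all genes. Over all 19 listed chromosome 17 genes homologous to human chromosome 21, all measured, Cbs alone passed the test (0.802% of all genes did). Cbs was picked for its lower signal, so nothing is read from that count. The next by p were Rsph1, a radial spoke protein of motile cilia, at 0.39 (adjusted p = 0.0864) and Slc37a1, a sugar phosphate transporter, at 0.10 (adjusted p = 0.137), the latter without overlap. The Rsph1 difference was 0.25 without control replicates 2 and 3 and 0.17 with the covariate for choroid plexus signal (adjusted p = 0.215 and 0.439).

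**Figure D5:**
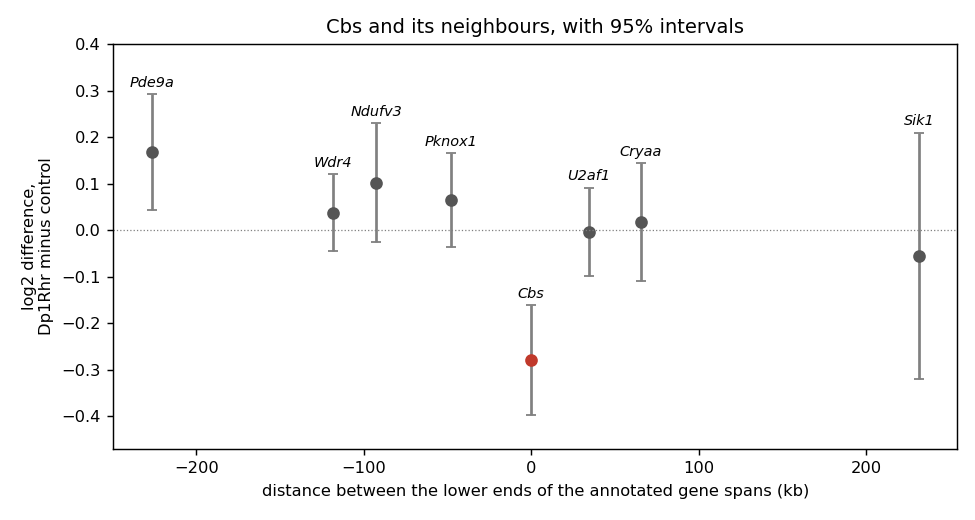
Log2 difference between Dp1Rhr and control, with 95% intervals from limma, of Cbs (red) and the 7 measured genes that begin within 250 kb of it (grey), against the distance in kb between the lower ends of the annotated spans. Cbs lies at -0.28 and its neighbours between -0.05 and 0.17.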

How the data were processed

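Hippocampal RNA (both sides pooled, 1 mouse per array) was hybridised to Affymetrix Mouse Gene 1.0 ST arrays, and the authors deposited RMA values, which are background-corrected, quantile-normalized log2 signals per probe set. The submitters' processing notes name RMA, limma and mm10, without versions. Which arrays were normalized together is not given in the sources used here. Depth does not apply to arrays, and the number of arrays limits the precision.

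Of 35556 probe sets, 21789 had 1 gene symbol, 1621 several and 12146 were not listed in the platform annotation. The first kind was kept, with the brightest probe set for each of 999 genes that had more than 1, which left 19938 genes. Entrez identifiers matched 21698 named probe sets to RefSeq, which gave the coordinates. Quantile normalization hides a change of all genes at once.

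Groups came from the labels, which call the samples biological replicates. Dp1Rhr was compared with control by lmFit and eBayes in limma 3.58.1 (R 4.3.3), two-sided, with Benjamini-Hochberg adjustment over all 19938 genes at 0.05. FCROS, which the study used, was reimplemented as an alternative (trim 0.25, f-value limits 0.025 and 0.975). As reimplemented, it calls a near-fixed share of genes whatever the data. The fits were tested on simulated data. Choroid plexus and astrocyte scores are the mean over each marker list of values standardized per gene.

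The members, gene lists, tests and alternatives were chosen with earlier results of these data known. The genes named are the members, genes past the threshold and the 3 with the smallest p in each pathway list, genes within 250 kb of Cbs, and the 5 most and 3 least correlated with Cbs. Lists of leptomeninges, microglia, endothelium, blood and habenula markers were also read. Their list means in control and Dp1Rhr were 7.82 to 8.32 and 8.11 to 8.26 (leptomeninges), 8.83 to 8.93 and 8.91 to 8.98 (microglia), 9.14 to 9.37 and 9.19 to 9.36 (endothelium), 7.02 to 7.28 and 7.31 to 7.63 (blood, 2 genes) and 6.92 to 7.54 and 6.96 to 8.41 (habenula). In that order, 7 of 9, 6 of 8, 5 of 7, 2 of 2 and 6 of 6 measured markers had a higher mean in Dp1Rhr. The 2 blood genes differed from each other. Alas2 had a log2 difference of 0.67 (limma adjusted p = 0.0304) and Slc4a1 one of 0.01 (adjusted p = 0.953). The correlation of deviations between arrays with the same replicate number ran from -0.35 to 0.14, so the numbers do not pair the mice.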

Additional observations from a re-analysis of the deposited data

Results flagged for a closer look

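Among 86 groups of 5 arrays (43 genes), 6 held 1 array far from the other 4 by Dixon's criterion, and chance alone flags about 1 group in 20. The log2 signal of Mat2b was 9.40 in control replicate 3, against 9.10 to 9.17 in the other controls. Mtrr was at 7.41 in Dp1Rhr replicate 3, against 7.81 to 7.87 in the rest of its group. Suox was at 8.58 in control replicate 4, against 8.44 to 8.48, and Gclm at 10.21 in control replicate 5, against 10.35 to 10.41. In Dp1Rhr replicate 5, Slc38a2 was at 11.33, against 11.10 to 11.16 in the other Dp1Rhr arrays, and Slc7a5 at 10.82, against 10.96 to 11.01. Dp1Rhr replicate 5 was also the array with the Cbs value nearest to control.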

How the results depend on the processing

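The log2 difference of Cbs kept its direction under all 12 planned settings and all 10 fits that left out an array. It passed the limma threshold under 7 settings. It passed the FCROS limits too, but these call a near-fixed share of genes whatever the data, so that pass is not separate support. It missed the threshold with the replicate block (-0.28, adjusted p = 0.0902), without control replicates 2 and 3 together (-0.32, adjusted p = 0.109), with the choroid plexus score (-0.34, adjusted p = 0.117) and with the astrocyte score (-0.28, adjusted p = 0.121). Leaving out 1 array gave -0.32 to -0.24. The count of members called, 1 in the fit reported, was 0 in these 4 settings and 0 to 1 when 1 array was left out. The count of 3 pathway calls became 1 with every probe set on its own (none of Suox, Tcn2 and Mmut), 5 with array weights, 15 by FCROS and 0 in the same 4 settings, and 0 to 8 when 1 array was left out. Suox also lost its call with a second quantile normalization (adjusted p = 0.0600), arrays centred on their medians (0.0637) and trend and robust in eBayes (0.0599), under the last of which Sqor gained one. The choroid plexus score moved As3mt to 0.12, Ndufv3 to 0.18 and Pknox1 to 0.15, and the astrocyte score moved Aldh1l1 to 0.073 and Mtrr to -0.15. Over all genes the 160 calls became 280 with array weights, 1075 by FCROS, 4 with the replicate block, 5 without control replicates 2 and 3, 5 with the choroid plexus score and 11 with the astrocyte score, and 5 to 284 when 1 array was left out. The replicate numbers do not pair the mice (2 of the 10 arrays correlated best with the array of their own number), and the block changed no direction.

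Differences near 0 changed sign. Without control replicates 2 and 3 the log2 difference was -0.065 for Cth, -0.039 for Ahcyl1, -0.047 for Mtr, -0.021 for Cdo1, -0.00026 for Cryaa and 0.15 for Sik1. With the choroid plexus score it was -0.097 for Cth, -0.064 for Ahcyl1, -0.072 for Mtr, -0.051 for Cdo1 and 0.21 for Sik1. With the astrocyte score it was -0.032 for Cth, -0.0028 for Mat2b, -0.0052 for Cdo1 and -0.013 for Cryaa. With array weights it was -0.00037 for Cth, -0.0041 for Cdo1, 0.015 for U2af1 and -0.0010 for Cryaa. A second quantile normalization gave -0.0071 for Cdo1, and the mean of the probe sets 5.5e-05 for U2af1. None of these passed the threshold, and the cause was not tested. Leaving out 1 array gave -0.026 to 0.076 for Cth, -0.0076 to 0.078 for Mat2b, -0.0095 to 0.027 for Ahcyl1, -0.0018 to 0.056 for Mtr, -0.13 to 0.016 for Mtrr, -0.017 to 0.028 for Cdo1, -0.028 to 0.030 for U2af1, -0.018 to 0.059 for Cryaa and -0.15 to 0.055 for Sik1. With 5 arrays a group, the 95% intervals of the members other than Cbs were of unlike width. That of Ahcyl1 ran from -0.07 to 0.09 on the log2 scale, and that of Mtrr from -0.30 to 0.16. For each member, differences inside its own interval could not be told from 0.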
